A study of Mus musculus with 4 samples.

Results

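The 9 genes described here encode the proteins that place, copy and remove DNA methylation in mouse cells: Dnmt1, Uhrf1, Dnmt3a, Dnmt3b, Dnmt3l, Tet1, Tet2, Tet3 and Tdg. They were chosen by name, as the rows of the deposited expression lists that carry these symbols, and they make up 9 of the 28250 genes listed. Their expression was measured by poly(A) RNA-seq in TBV2 cells, a line of mouse embryonic stem cells (ESCs). Solvent-treated cells (2 libraries, 24 h) were compared with cells that received MS-275 at 5 µM for 24 h (2 libraries). MS-275 (entinostat) is a small molecule that inhibits class I histone deacetylases, and the comparison asks which genes it changed in cells that were still kept with LIF, the cytokine that holds mouse ESCs undifferentiated. Both groups are the same cell line under the same culture, described by the submitters with a feeder layer and with gelatin-coated plates. Nothing in the labels says whether the libraries of a condition came from separate cultures. The p-values below thus rest only on the spread between these libraries, pooled in part over all genes, and this spread may be technical.

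In mammals the methyl group sits mainly on cytosines that are followed by guanine (CpG). DNMT3A and DNMT3B set new marks, and DNMT3L, which has no catalytic activity of its own, binds and stimulates them and is best known from germ cells and ESCs. DNMT1 copies the marks onto the new strand after replication, guided by UHRF1, which recognises DNA methylated on a single strand. The TET dioxygenases oxidise methylcytosine to hydroxymethylcytosine and further, and the glycosylase TDG cuts out the most oxidised forms so that base excision repair can put back a plain cytosine. Tet1 and Tet2 are the TET genes of mouse ESCs, while Tet3 is known mainly from the egg and from differentiated tissues. Naive epiblast cells carry little DNA methylation, and primed epiblast cells carry much more.

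The promoters of the genes that moved are printed here because they differ in CpG content and because several genes have more than 1 annotated start. Each sequence covers 250 bases before to 50 after a RefSeq start (GRCm38.p6 table), was matched exactly to the mm9 genome, and is written 5′ to 3′ on the gene's strand in lower case with each CpG in capitals. The first pair belongs to Dnmt3a on the plus strand of chromosome 12, with the start of the long transcript at chr12:3806730-3807029 and the internal start at chr12:3891494-3891793.
Dnmt3a long: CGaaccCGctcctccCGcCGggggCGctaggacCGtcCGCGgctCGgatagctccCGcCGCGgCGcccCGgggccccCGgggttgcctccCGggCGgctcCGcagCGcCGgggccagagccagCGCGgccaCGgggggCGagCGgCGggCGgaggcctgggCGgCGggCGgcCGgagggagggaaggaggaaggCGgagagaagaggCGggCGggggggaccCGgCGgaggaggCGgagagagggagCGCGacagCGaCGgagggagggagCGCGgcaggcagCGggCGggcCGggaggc
Dnmt3a internal: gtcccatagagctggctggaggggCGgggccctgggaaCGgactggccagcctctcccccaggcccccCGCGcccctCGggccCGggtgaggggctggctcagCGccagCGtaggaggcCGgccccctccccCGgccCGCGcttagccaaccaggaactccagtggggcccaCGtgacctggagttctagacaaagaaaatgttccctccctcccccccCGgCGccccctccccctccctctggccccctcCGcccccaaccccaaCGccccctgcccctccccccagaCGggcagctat
The windows held 46 and 18 CpG. Among 32851 promoter windows of the same length, 98.6% and 71.9% held as many or fewer, and the median was 7. The next window, that of Dnmt3b (chr2:153474935-153475234, plus strand), held 30 CpG.
Dnmt3b: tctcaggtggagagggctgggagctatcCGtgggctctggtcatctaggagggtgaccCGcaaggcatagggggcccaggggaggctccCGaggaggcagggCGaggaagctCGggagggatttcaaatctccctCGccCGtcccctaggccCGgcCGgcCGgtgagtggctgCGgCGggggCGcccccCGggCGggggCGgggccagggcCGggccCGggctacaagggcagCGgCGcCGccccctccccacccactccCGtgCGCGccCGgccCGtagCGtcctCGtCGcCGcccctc
Dnmt3l, on the plus strand of chromosome 10, is shown with its upstream start (chr10:77504782-77505081). It is also shown with the RefSeq start nearest to the first exons that carried its signal (chr10:77512337-77512636), labelled used, although no start was mapped.
Dnmt3l upstream: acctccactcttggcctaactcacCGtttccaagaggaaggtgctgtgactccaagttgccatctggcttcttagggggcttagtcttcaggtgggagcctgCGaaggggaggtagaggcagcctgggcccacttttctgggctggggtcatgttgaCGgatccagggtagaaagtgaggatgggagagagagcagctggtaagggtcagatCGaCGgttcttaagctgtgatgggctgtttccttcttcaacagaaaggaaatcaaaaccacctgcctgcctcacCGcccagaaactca
Dnmt3l used: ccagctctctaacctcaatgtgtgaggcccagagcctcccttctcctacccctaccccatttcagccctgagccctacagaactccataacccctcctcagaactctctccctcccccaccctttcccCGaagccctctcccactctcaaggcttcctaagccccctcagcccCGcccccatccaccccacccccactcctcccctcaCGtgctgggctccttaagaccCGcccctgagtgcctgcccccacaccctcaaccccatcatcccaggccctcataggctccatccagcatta
These windows held 6 and 4 CpG, fewer than the median window. The TET genes that fell lie on the minus strands of chromosomes 10 and 3, with windows at chr10:62350023-62350322 (Tet1) and chr3:133207305-133207604 (Tet2).
Tet1: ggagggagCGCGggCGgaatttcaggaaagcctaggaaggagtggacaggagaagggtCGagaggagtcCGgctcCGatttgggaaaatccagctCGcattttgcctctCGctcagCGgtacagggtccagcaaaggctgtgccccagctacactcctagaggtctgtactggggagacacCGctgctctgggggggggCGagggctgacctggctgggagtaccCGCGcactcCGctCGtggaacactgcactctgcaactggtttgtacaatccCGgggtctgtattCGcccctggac
Tet2: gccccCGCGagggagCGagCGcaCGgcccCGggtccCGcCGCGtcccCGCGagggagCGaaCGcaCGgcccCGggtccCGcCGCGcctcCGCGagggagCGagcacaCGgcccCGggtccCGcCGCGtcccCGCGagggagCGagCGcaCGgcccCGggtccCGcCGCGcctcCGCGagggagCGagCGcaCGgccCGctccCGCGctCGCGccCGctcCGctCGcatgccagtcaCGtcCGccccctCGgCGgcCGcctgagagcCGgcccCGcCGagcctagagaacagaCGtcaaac
The Tet1 window held 17 CpG and the Tet2 window 57, and 70.3% and 99.9% of all windows held as many or fewer. The E-box palindrome CACGTG, searched on both strands, was found once in the internal Dnmt3a window, once in the used Dnmt3l window and once in that of Tdg, and in 7.15% of all windows.

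The files of a library hold 1 normalized expression value per gene, which the authors made with Genomatix, and the mapped reads as alignments of 35 bases on mm9. The value is a signal without a stated formula, not a read count, and it summed to between 2490 and 4359 over a library. Between 9785619 and 23467935 alignments were deposited per library, at 9122347 to 10973569 distinct positions (1 start and strand counted once). The alignments of replicate 1 hold 53.2% (solvent) and 54.4% (MS-275) repeats of a position, and those of replicate 2 hold none. The authors' headers call the values of replicate 1 old, whereas the names of the alignments call those of replicate 2 old. Over 12941 genes, which are not independent, the values correlated at 0.902 to 0.951 with the positions of the other replicate of the condition and at 0.846 to 0.923 with those deposited under the same number. Positions are therefore given under the number they were deposited with, and a value and a position count of 1 number may not be the same run. By either naming replicate 1 of one condition goes with replicate 1 of the other.

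Across all genes, limma on log2(value + 0.005) called 1 of 20336 genes higher (0.00492% of those tested) and none lower with MS-275 at an adjusted p under 0.05. At an unadjusted p under 0.05 the counts were 2974 and 564. With the replicate number as a block in the same fit, 4277 genes (21%) were higher and 1314 (6.46%) lower. The fit pools the spread over genes. With the block little of a gene's own spread is left in 4 libraries, so its p-value rests mostly on the pooled spread. On distinct positions per gene, tested with limma-voom, 2568 of 16994 genes (15.1%) were higher and 864 (5.08%) lower, and with the block 5053 (29.7%) and 2343 (13.8%). None of the 9 genes passed on the values without the block. With it 3 of the 9 rose (Dnmt3a, Dnmt3b and Dnmt3l) and 2 fell (Tet1 and Tet2), beside the 21% and 6.46% of all genes. Dnmt3a, Dnmt3b, Dnmt3l, Tet1 and Tet2 also passed on the positions, with and without the block, and Tet3 joined the higher genes there with the block. Over all genes the median log2 fold change was 0.20 on the deposited values and -0.01 after median-ratio scaling of the libraries. With that scaling and the block, 3379 genes (16.6%) were higher and 2864 (14.1%) lower, and of the 9 genes 2 were higher (Dnmt3a and Dnmt3l) and 3 lower (Tet1, Tet2 and Uhrf1). Relative to that median, the 9 genes ranged from -2.67 (Tet1) to 1.09 (Dnmt3a).

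**Figure D1:**
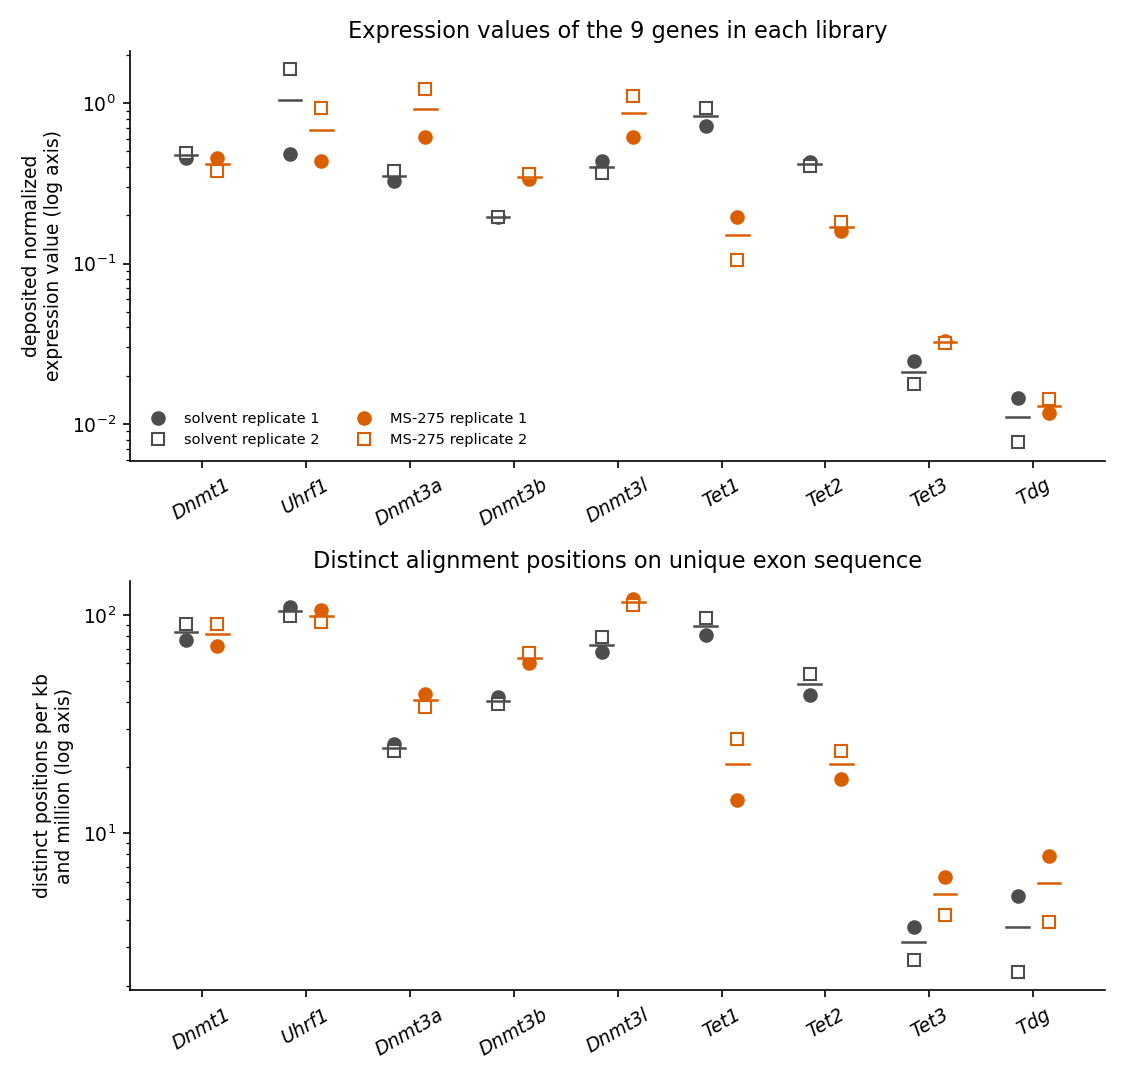
Level of each gene in each library on log axes, as the deposited normalized expression value (upper) and as distinct alignment positions per kb of unique exon sequence and 1000000 positions on exons (lower), with grey for solvent, orange for MS-275, filled circles for replicate 1, open squares for replicate 2 and a bar at the mean of 2 libraries. Both MS-275 libraries lie below both solvent libraries for Tet1 and Tet2 and above them for Dnmt3a, Dnmt3b and Dnmt3l in both panels. Of all genes tested, 12% lie below and 32.3% above in this way on the values. On positions per 1000000 the shares are 22% and 39.2%.

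Tet1, the most abundant TET gene of the solvent-treated cells, fell furthest. Its value was 0.717 and 0.936 in solvent replicates 1 and 2 and 0.196 and 0.105 in MS-275 replicates 1 and 2. The groups did not overlap, and the gap was far wider than the spread within either. Both MS-275 values lay below both solvent values in 12% of all genes tested. The value was 3.66-fold lower in the first replicate pair and 8.90-fold lower in the second. The log2 fold change was -2.47 ± 0.28 (SE with the block, n = 2 libraries a group; limma adjusted p = 1.67e-05), against an adjusted p of 0.0581 without the block. Without solvent replicate 1 or MS-275 replicate 1 the unblocked fit called Tet1 (0.0101 and 0.00065). It was the 22nd lowest log2 fold change of the 20336 genes tested. On positions Tet1 changed by -2.14 ± 0.12 (adjusted p = 9.06e-12 with the block and 0.0051 without).

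The fall of Tet1 ran along the whole transcript. Of its 13 merged exons, 10 held at least 40 positions over the libraries, and in all 10 both MS-275 libraries lay below both solvent libraries, with log2 ratios from -2.65 to -1.70. The last exon, which holds most of the 3′ part of the mRNA, had 5207 and 6078 positions with solvent and 810 and 1855 with MS-275. A distinct position can be counted only once, and this limits a densely covered gene: on the exon parts shared by the Tet1 transcripts compared here, solvent replicate 1 held 21650 alignments at 7614 positions and MS-275 replicate 1 held 1552 at 1085. The position-based change of Tet1 is thus smaller than one taken from all alignments of those libraries.

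Tet2 fell less and more evenly. Its value was 0.428 and 0.403 with solvent and 0.160 and 0.181 with MS-275, 2.68-fold lower in the first pair and 2.23-fold lower in the second. The replicates of each condition were close together and the conditions were separate, with MS-275 below solvent as in 12% of all genes tested. As a log2 fold change this was -1.26 ± 0.22 (SE with the block; limma adjusted p = 0.000664 with the block and 0.127 without), the 358th lowest of 20336. On positions it was -1.22 ± 0.11 (adjusted p = 7.27e-09 with the block, 0.0068 without), and 9 of the 10 exons with at least 40 positions were lower in both MS-275 libraries.

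Tet3 stood far below the other TET genes and did not fall with them. Its value was 0.0246 and 0.0177 with solvent and 0.0330 and 0.0322 with MS-275. Both MS-275 values lay above both solvent values, which 32.3% of all genes tested did. The log2 fold change on the values was 0.54 ± 0.30 (SE with the block) and did not pass (limma adjusted p = 0.205 with the block and 0.774 without). On positions (269 and 181 with solvent, 374 and 328 with MS-275) it was 0.74 ± 0.17 and passed with the block (adjusted p = 0.00111) but not without it (0.118). Per 1000000 positions both MS-275 libraries were again above both solvent libraries, as were 39.2% of all genes tested.

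The glycosylase Tdg was listed at 0.0145 and 0.00772 with solvent and at 0.0118 and 0.0142 with MS-275. The groups overlapped, and the log2 fold change of 0.19 ± 0.32 (SE with the block) did not pass (limma adjusted p = 0.700 with the block), with a 95% confidence interval from -0.48 to 0.86. Its sign turned under quantile normalization (-0.32) and without solvent replicate 2 (-0.12). The level of Tdg is poorly measured here. Only 47.8% of the 35-base windows of its exons occur once in the genome, against 98.3% to 100% for the other genes except Uhrf1 (67.1%) and Dnmt3b (88.0%). No alignment of any library started in the repeated windows of Tdg, and the gene held 35 to 38 positions per library.

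The de novo methyltransferase Dnmt3a rose. Its value was 0.328 and 0.379 with solvent and 0.612 and 1.22 with MS-275, 1.87-fold higher in the first pair and 3.23-fold higher in the second. Both MS-275 libraries were above both solvent libraries, as in 32.3% of all genes tested. The MS-275 libraries differed from each other by more than the solvent libraries did. This is a log2 fold change of 1.29 ± 0.27 (SE with the block; limma adjusted p = 0.00255 with the block and 0.273 without). On positions it was 0.73 ± 0.11 (adjusted p = 6.74e-06 with the block, 0.0129 without), and 15 of the 17 exons with at least 40 positions were higher in both MS-275 libraries. The size on the values rested on MS-275 replicate 2, without which it was 0.79.

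Dnmt3b, the other de novo enzyme, rose by a smaller but very even amount. Its value was 0.196 and 0.195 with solvent and 0.334 and 0.360 with MS-275. The solvent libraries were nearly equal, and each MS-275 library was 1.70-fold or 1.85-fold above its pair. On the log2 scale it rose by 0.81 ± 0.22 (SE with the block; limma adjusted p = 0.0127 with the block and 0.316 without). It was 0.53 and did not pass after median-ratio scaling with the block (adjusted p = 0.0793). On positions it was 0.66 ± 0.12 (adjusted p = 0.000139 with the block, 0.0201 without). Merged exons 21 to 23 of its 24 held no unique window and 0 or 1 positions, so this stretch near the 3′ end is not measured in the alignments.

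Dnmt3l, the stimulating cofactor, rose with both enzymes it binds. Its value was 0.438 and 0.367 with solvent and 0.616 and 1.12 with MS-275, 1.40-fold higher in the first pair and 3.04-fold in the second. As with Dnmt3a and 32.3% of all genes tested, both MS-275 values lay above both solvent values. The second pair differed more on the values, again as with Dnmt3a. On the log2 scale it rose by 1.04 ± 0.29 (SE with the block; limma adjusted p = 0.0152 with the block and 0.403 without), and 0.75 (adjusted p = 0.0360) after median-ratio scaling with the block. On positions it was 0.71 ± 0.13 (adjusted p = 9.12e-05 with the block, 0.0193 without), and all 15 exons with at least 40 positions were higher in both MS-275 libraries. Without MS-275 replicate 2 the change on the values was 0.61.

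The maintenance genes did not pass in these fits. Dnmt1 was at 0.457 and 0.488 with solvent and at 0.457 and 0.380 with MS-275, so that the first pair was nearly equal and the second 1.28-fold lower with MS-275. It changed by -0.18 ± 0.25 (log2, SE) on the values (95% confidence interval with the block -0.70 to 0.34; limma adjusted p = 0.632) and -0.03 ± 0.10 on the positions (-0.24 to 0.18; adjusted p = 0.837). The changes measured for the 5 genes that passed with the block on the values lie outside both intervals.

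Uhrf1, the partner of Dnmt1, was at 0.481 and 1.62 with solvent and at 0.433 and 0.930 with MS-275. Its libraries split by replicate and not by treatment, with replicate 2 far above replicate 1 in both conditions. The log2 fold change was -0.48 ± 0.29 (SE with the block) with limma adjusted p = 0.242 with the block and 0.862 without. It passed only after median-ratio scaling with the block (-0.76, adjusted p = 0.0424), and its sign turned when solvent replicate 2 (0.40) or MS-275 replicate 1 (0.07) was left out. On positions the split by replicate was absent (1475 and 1279 with solvent, 1170 and 1340 with MS-275) and the log2 fold change was -0.06 ± 0.12 (adjusted p = 0.713 with the block). A split of this kind between the values of replicates 1 and 2 was also seen for other genes, such as Pcna (0.191 and 0.807 with solvent).

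**Figure D2:**
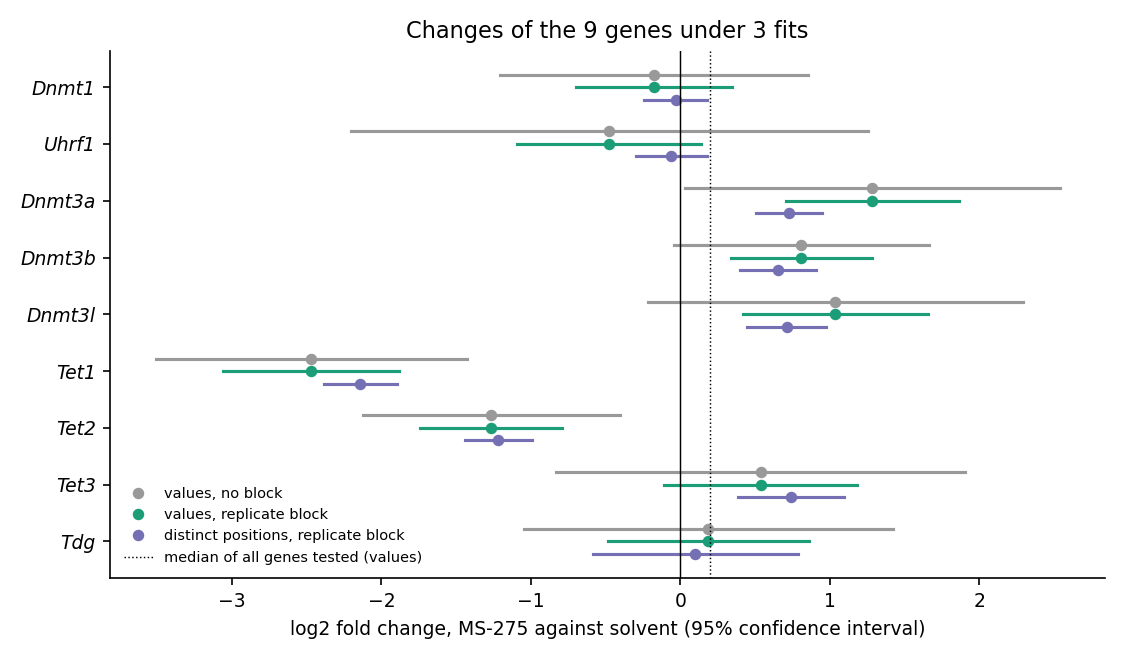
Log2 fold change of each gene, MS-275 against solvent, as a point with its 95% confidence interval from limma on the values without the block (grey), with the replicate block (green) and from limma-voom on distinct positions with the block (purple). Tet1 (-2.47 on the values) and Tet2 (-1.26) lie left of 0 and Dnmt3a (1.29), Dnmt3l (1.04) and Dnmt3b (0.81) right of it with the block, while the intervals of Dnmt1, Uhrf1 and Tdg include 0 in every fit shown.

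Levels were compared between genes only per length, as distinct positions per kb of unique sequence in the longest coding transcript and per 1000000 positions on exons. A position counts once, which holds down densely covered genes such as Tet1, and this was not corrected. In these transcripts 60.2% of the windows of Uhrf1 were unique, and 18.7% of those of Tdg. Tdg thus rested on 21 and 9 positions with solvent and 26 and 17 with MS-275. With solvent Uhrf1 stood highest at 104 ± 7.66 (SD, n = 2), followed by Tet1 (88.9 ± 11.3), Dnmt1 (83.7 ± 9.98) and Dnmt3l (73.2 ± 8.19). Neighbours among these 4 differed by less than the sum of their SDs. Below them came Tet2 (48.2 ± 7.56), Dnmt3b (40.5 ± 1.94) and Dnmt3a (24.7 ± 1.40), with Tdg (3.73 ± 2.00) and Tet3 (3.17 ± 0.77) far behind and not apart from each other. The level of Dnmt3a depends on the sequence counted. Before division by depth, the exon parts that its long and internal-start transcripts share held 351 and 286 positions per kb of unique window with solvent. All exons of Dnmt3b held 234 and 207, so the place of Dnmt3a below Dnmt3b is not settled.

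With MS-275 the order changed. Dnmt3l was highest at 115 ± 4.94, ahead of Uhrf1 (99.0 ± 8.36), Dnmt1 (81.6 ± 13.1), Dnmt3b (63.7 ± 4.73) and Dnmt3a (40.7 ± 3.83). On the shared parts named above, before division by depth, Dnmt3a held 518 and 665 positions per kb of unique window with MS-275. All exons of Dnmt3b held 272 and 396, so the order of Dnmt3a and Dnmt3b is again not settled. Uhrf1 and Dnmt1, now neighbours, differed by less than the sum of their SDs. Tet2 (20.7 ± 4.36) and Tet1 (20.7 ± 9.08) followed with overlapping libraries, so that Tet1 went from second to seventh place among the 9. Tdg (5.88 ± 2.78) and Tet3 (5.26 ± 1.49) stayed last.

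Ratios within a library were taken as log2 ratios of the deposited values plus the pseudocount. A constant factor of that library enters them only through the pseudocount, which weighs on small values such as those of Tet3 and Tdg. A difference in scale that is not a constant factor is not removed. The ratio of Uhrf1 to Dnmt1 was 0.07 and 1.72 with solvent on the values, but -0.63 and -0.95 on positions. With 2 libraries against 2 an exact permutation test cannot go below p = 0.3333, so none was run. The ratio of Tet2 to Tet1 was -0.74 and -1.21 with solvent and -0.28 and 0.75 with MS-275, a mean difference of 1.21. The ratio of Tet3 to Tet1 was -4.61 and -5.37 with solvent and -2.40 and -1.57 with MS-275, a mean difference of 3.01. In both ratios the MS-275 libraries lay above the solvent libraries. Without MS-275 replicate 2 the differences on the values were 0.69 and 2.59. On positions, with all libraries, they were 0.95 and 2.90.

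The ratios among the de novo genes overlapped between the groups. The ratio of Dnmt3a to Dnmt3b was 0.72 and 0.94 with solvent and 0.86 and 1.75 with MS-275, with overlapping groups, and its change of 0.47 on the values was 0.08 on the positions. The ratio of Dnmt3l to Dnmt3b changed by 0.23 on the values and by 0.06 on the positions, again with overlap (1.14 and 0.90 against 0.87 and 1.62 on the values). With 1 library left out, the difference on the values ran from 0.03 (without MS-275 replicate 2) to 0.92 (without MS-275 replicate 1) for Dnmt3a to Dnmt3b, and from -0.15 to 0.60 with the same libraries left out for Dnmt3l to Dnmt3b, so its sign turned. The ratio of Uhrf1 to Dnmt1 was 0.07 and 1.72 with solvent and -0.08 and 1.28 with MS-275, and followed the replicate number, and its difference ran from -1.12 (without solvent replicate 1) to 0.53 (without solvent replicate 2).

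**Figure D3:**
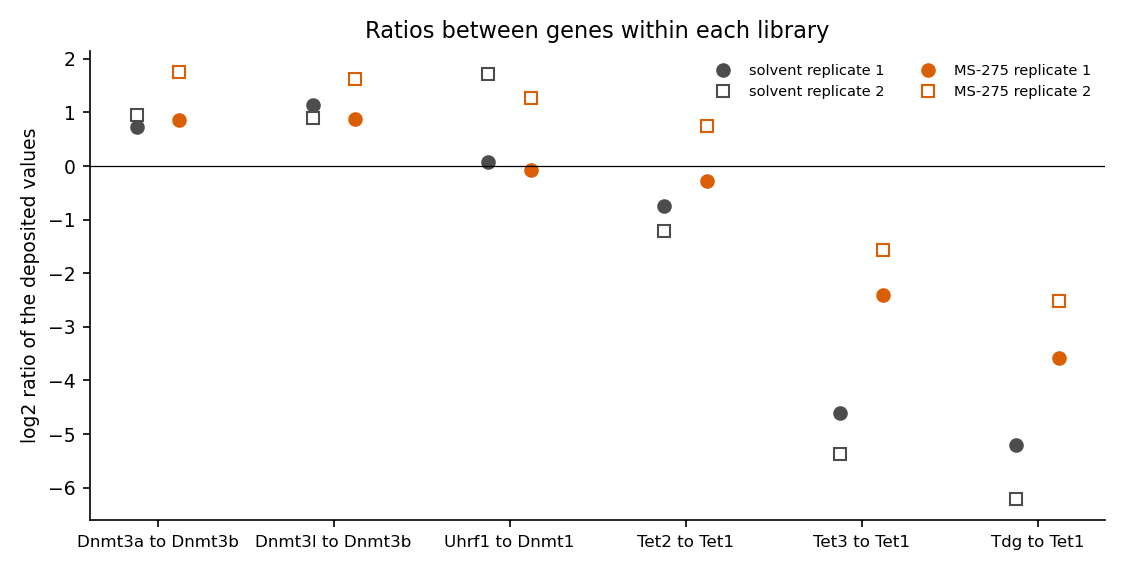
Log2 ratio of the deposited values of 2 genes within each library, grey for solvent, orange for MS-275, filled circles for replicate 1 and open squares for replicate 2. The ratios to Tet1 were higher with MS-275 in both pairs (by 1.21 for Tet2 and 3.01 for Tet3 on average), while the ratios among the Dnmt3 genes overlap between the groups.

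The alignments also show which annotated transcripts carried the signal. Dnmt3a (chr12:3806007-3914443 on mm9, plus strand) is known for a long form and a shorter form that starts at an internal promoter and is typical of ESCs. From merged exon 17 of its 32, at chr12:3895543, every library was densely covered, and upstream of it the exons were nearly empty. On the parts that only the long transcript Dnmt3a-001 has (889 bases), the libraries held 23 and 17 positions with solvent and 24 and 19 with MS-275, while the 2195 bases it shares with Dnmt3a-005 held 563 and 458 with solvent and 831 and 1067 with MS-275. The long-only parts took 3.92% (exact binomial 95% interval 2.50 to 5.83) and 3.58% (2.10 to 5.67) of these positions with solvent and 2.81% (1.81 to 4.15) and 1.75% (1.06 to 2.72) with MS-275, although they hold 29.9% of the unique windows. The intervals cover counting error only. The rise of Dnmt3a was thus measured on the shared exons, and the long-only parts held about equal numbers of positions in the 4 libraries. The first exon of Dnmt3a-005, behind the internal promoter printed above, held 6, 1, 4 and 4 positions in the same order of libraries, so the start itself was thinly covered.

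Dnmt3l (chr10:77504692-77526367, plus strand) showed a similar picture. The parts that only the most upstream transcript Dnmt3l-001 has held 2 and 1 positions with solvent and 3 and 8 with MS-275, against 620, 694, 881 and 1083 on the shared exons. The signal began near the RefSeq start at chr10:77512587, whose promoter window is the CpG-poor one printed above. The exon at that start held 8 and 10 positions with solvent and 13 and 18 with MS-275, and the start itself was not mapped. An internal exon at chr10:77518080-77518461, the first exon of Dnmt3l-004, held 4 and 4 positions with solvent and 23 and 22 with MS-275. On its unique windows alone it took 0.917% (exact binomial 95% interval 0.19 to 2.66) and 1.05% (0.29 to 2.67) of the positions on it and on the exons common with Dnmt3l-002 in the solvent libraries, and 4.33% (2.73 to 6.48) and 3.42% (2.07 to 5.29) in the MS-275 libraries. Both MS-275 shares were above both solvent shares. The interval of MS-275 replicate 1 lay above those of the solvent libraries, that of MS-275 replicate 2 overlapped them, and the difference was not tested.

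**Figure D4:**
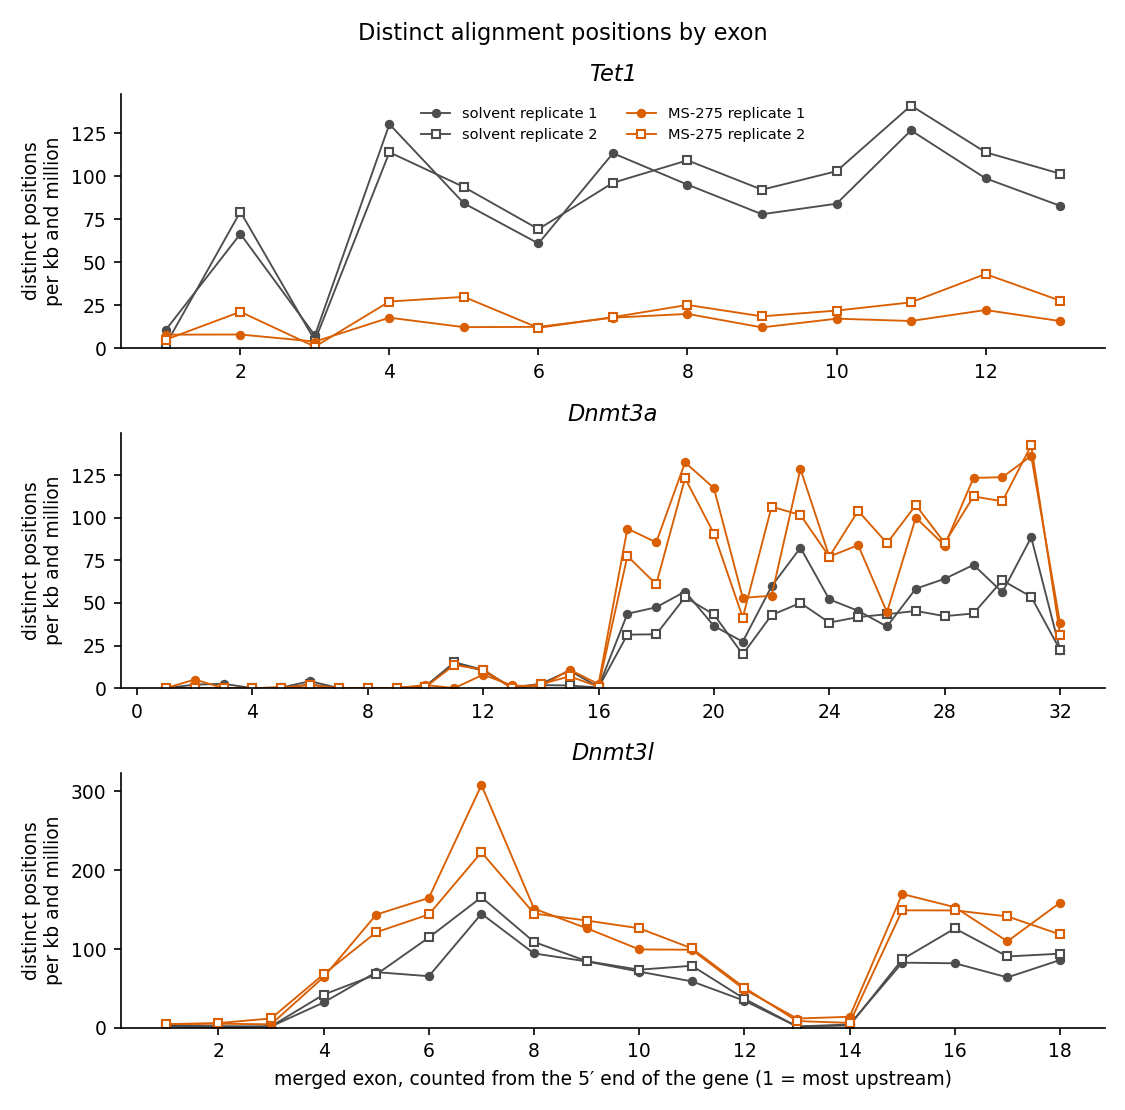
Distinct positions per kb of unique window and 1000000 positions on exons for each merged exon of Tet1, Dnmt3a and Dnmt3l, numbered from the 5′ end, in the 4 libraries (grey solvent, orange MS-275). Tet1 is lower with MS-275 along the transcript, Dnmt3a is near 0 before merged exon 17 and higher with MS-275 from there, and the signal of Dnmt3l begins at merged exon 4.

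Tet1 (chr10:62267318-62361866, minus strand) has a distant first exon at chr10:62361692-62361866, which held 10 and 2 positions with solvent and 6 and 5 with MS-275. Its second exon held 895 and 1018 with solvent and 88 and 304 with MS-275. The fall was thus on the exons downstream of the start at chr10:62350072, the one RefSeq lists. Uhrf1 (chr17:56442744-56462909, plus strand) has an alternative first exon at chr17:56443736-56443816, which held 9 and 3 positions with solvent and 25 and 9 with MS-275. That exon had the largest log2 ratio of the gene (1.69) while the gene as a whole was at -0.06, and solvent replicate 1 and MS-275 replicate 2 held equal numbers there. For Dnmt1 (chr9:20711650-20757317, minus strand) the annotation used here holds 1 transcript, so its oocyte start was not examined.

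Among the genes whose values across the 4 libraries ran closest to those of Tet1, by the root mean square difference of the centred log2 values, were Patl2 (0.0893) and 2410007B07Rik (0.125). Patl2, an RNA-binding protein known from oocytes, was at 0.139 and 0.155 with solvent and 0.0304 and 0.0141 with MS-275.

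The genes around the methylation machinery were described by list, with counts from limma on the values with the block. Of all genes tested that fit called 21% higher and 6.46% lower, and each list count is to be read beside these shares. In a list of 13 partners and regulators of methylation, 1 rose and 5 fell, with a median log2 fold change of -0.52 against 0.20 for all genes. Dppa3 (Stella), which shields DNA from methylation by displacing UHRF1, rose from 0.0162 and 0.0234 to 0.0731 and 0.413 (log2 fold change 2.88, limma adjusted p = 3.73e-05 with the block and 0.0855 without). Prdm14, a repressor of the de novo enzymes in naive ESCs, fell from 0.260 and 0.0840 to 0.0392 and 0.00713 (-2.73, adjusted p = 4.80e-06 with the block and 0.0991 without). Nsd1, which writes the histone mark that DNMT3A reads, fell by 1.47 on the log2 scale, and Trdmt1, an RNA methyltransferase of the DNMT family, was at 0.63 (adjusted p = 0.0516). Cdca7, Zfp57 and Ctcf also fell. Hells, the remodeller that opens DNA to the methyltransferases, was at -0.52 and did not pass, and was called lower on the positions and after median-ratio scaling, both with the block. Trdmt1 was called higher on the positions with the block (limma-voom adjusted p = 0.00244).

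Of 10 listed TET partners, none rose and 1 fell, beside 21% and 6.46% of all genes, with a median of -0.40. This one was Cxxc5, a CpG-binding protein that binds TET2, which went from 0.213 and 0.255 to 0.103 and 0.0737 (log2 fold change -1.37, adjusted p = 0.000549). Cxxc4, a relative of Cxxc5 that also binds TET2 and is named here after its values were seen, is not in the value lists, but it held 1 and 0 positions with solvent and 34 and 31 with MS-275 (limma-voom adjusted p = 9.53e-07 with the block). Ogt, the glycosyltransferase that binds TET proteins, was at -0.65. Idh1 (0.51) and Ogdh (0.48), enzymes that make and use the cofactor oxoglutarate, had the largest positive changes and did not pass. After median-ratio scaling with the block 6 of the 10 were called lower, beside 14.1% of all genes, so this count depends on the scale of the libraries. On positions with the block, 2 of the 10 tested were higher and 4 lower, beside 29.7% and 13.8% of all genes. Idh1 was among the higher (limma-voom adjusted p = 0.0196) and Ogt among the lower (5.58e-05).

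Among 20 genes of base excision and deamination, which act after the TET enzymes, 2 rose and 5 fell (median -0.08), beside 21% and 6.46% of all genes. The stress gene Gadd45b rose from 0.0534 and 0.0722 to 0.131 and 0.181 (log2 fold change 1.25). Apobec3 (-1.62) and Neil2 (-1.44), a deaminase and a glycosylase, fell most. Ung, Neil1 and Apobec1 fell as well, and Mbd4, Smug1, Polb and Xrcc1 did not pass.

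Of 9 methyl-CpG readers 1 rose and 2 fell (median 0.18), beside 21% and 6.46% of all genes. Mbd2 rose (0.91), Zbtb38 was among those that fell (-1.48), and Mbd4 was at 0.33. Of 9 methyl donor enzymes, 1 rose and 1 fell (median -0.12), beside the same shares. Gnmt, which uses up the methyl donor, rose by 0.81 (adjusted p = 0.0497). Mat2b was at -0.58 and did not pass, but was called lower on the positions with the block (limma-voom adjusted p = 0.00231). Mat1a, the liver form, was at 0.42 with values near 0.

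Of 15 germline genes that DNA methylation is known to keep silent in somatic cells, 8 rose and 1 fell, beside 21% and 6.46% of all genes. Their median log2 fold change was 0.79 against 0.20 for all genes, and 12 were higher in both pairs, as were 50% of all genes tested. After median-ratio scaling with the block 5 rose and 1 fell, beside 16.6% and 14.1% of all genes. Brdt, a bromodomain protein of the testis, rose from 0.0302 and 0.0238 to 0.227 and 0.221 (2.84), and Tex101, a sperm surface protein, from 0.0156 and 0.00813 to 0.100 and 0.0702 (2.43). Dazl, an RNA-binding protein of germ cells, rose by 0.87 and Mael, of the piRNA pathway, by 1.30. Hormad1, a meiotic chromosome axis protein, fell (-0.94), and Ddx4 was at -0.08. DNA methylation itself was not measured in these libraries.

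Dnmt1 and Uhrf1 are expressed with DNA replication, so 20 replication genes were set beside them. None rose and 2 fell, beside 6.46% of all genes lower, with a median of -0.43, and 16 were lower in both pairs, as were 26.5% of all genes tested. Mcm5 (-0.93) and Mcm2 (-0.92), helicase subunits, fell, and Prim1 (0.06) and Gins2 (0.03) were the highest. After median-ratio scaling with the block 12 of the 20 were called lower, beside 14.1% of all genes. On positions 11 were lower with the block and 2 without, beside 13.8% and 5.08% of all genes.

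Genes of other repressive systems were listed too, beside the same 21% higher and 6.46% lower of all genes. Of 10 listed PRC2 genes none rose and 2 fell (median -0.02): Aebp2 (-0.88) and Eed (-0.80), with Jarid2 (0.39) and Rbbp4 (0.32) at the upper end. Of 11 genes of H3K9 methylation none rose and 2 fell (median -0.04): Atrx (-0.83) and Suv39h2 (-0.79), with Suv39h1 (0.55) and Trim28 (0.26) at the upper end.

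The labelled cell type was checked with 12 ESC markers, all at or above 0.120 in every library. All 12 were lower in value with MS-275 in both pairs, as were 26.5% of all genes tested (median -0.65). With the block 5 fell, beside 6.46% of all genes, led by Utf1 (-1.45) and Tbx3 (-1.41). Dppa5a (-0.22) and Nanog (-0.23) changed least. On positions with the block 5 of the 11 tested fell, beside 13.8% of all genes, with a median of -0.31. There Dppa5a was at 0.08, and Sox2 and Zfp42 were at -0.08. Of 7 primed epiblast markers 3 rose and 2 fell, beside 21% and 6.46% of all genes. Pou3f1 (1.82) and Sox3 (1.32) rose, Zic2 (-1.73) and Otx2 (-1.44) fell, and the list also holds Dnmt3b. Fgf5, a common marker of that state, was at 0.00217 and 0.00199 with solvent and 0.00117 and 0.00149 with MS-275, close to the floor of 0.001.

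Because a feeder layer is named in the labels, 14 fibroblast markers were summed. They came to 0.429 and 0.545 with solvent and 0.779 and 0.953 with MS-275, against 3.08, 4.42, 2.85 and 4.34 for the 9 enzymes in the same order of libraries. Of the 14, 1 was under the floor of 0.001 in each solvent library and none with MS-275. With the block 7 rose and none fell (median 0.61), beside 21% and 6.46% of all genes. Col1a1 (2.41) and Fbn1 (1.37) rose most. Dcn (-0.72) and Col3a1 (-0.52), also collagen-matrix genes of fibroblasts, had the lowest changes and did not pass in that fit. On positions with the block 7 rose and Col3a1 fell (-1.08, limma-voom adjusted p = 0.027), beside 29.7% and 13.8% of all genes. After median-ratio scaling with the block 5 rose and Dcn fell (-0.88), beside 16.6% and 14.1%. Whether a changed share of feeder cells takes part in the changes of the 9 genes was not tested, and in bulk libraries fewer cells of a type and less RNA per cell cannot be told apart.

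**Figure D5:**
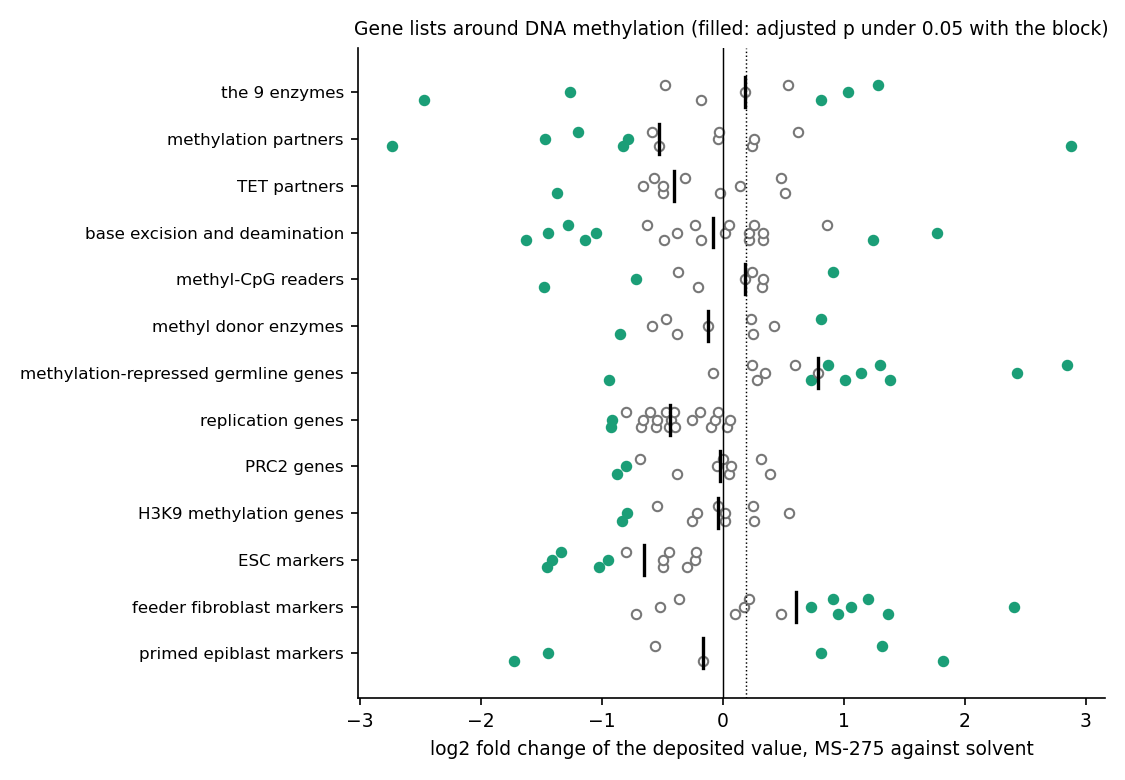
Log2 fold change of the deposited value of every tested gene of each list, as filled green points where limma with the replicate block gave an adjusted p under 0.05 and open points elsewhere, with a black bar at the list's median and a dotted line at the median of all genes (0.20). The germline list has its median at 0.79 and the ESC marker list at -0.65, while the 9 enzymes spread from -2.47 to 1.29 around a median of 0.19.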

How the data were processed

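Poly(A) RNA-seq of TBV2 ESCs was analysed in 4 libraries, grouped by their titles into solvent (2) and 5 µM MS-275 (2), both at 24 h, with the library called a duplicate as replicate 2. The submitters name the treatment vehicle in more than 1 way, so the text says solvent. The values are a normalized signal per gene which the authors made with Genomatix and deposited for 28250 genes, and the aligner and the formula are not given in the sources used here. The deposited alignments on mm9 have 35 bases each. The authors' ratio tables hold their own comparisons and were not used.

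Values were analysed as log2(value + 0.005) for the 20336 genes that reached 0.001 in 2 or more libraries, with lmFit and eBayes (trend) in limma 3.58.1 (R 4.3.3) and Benjamini-Hochberg adjustment over all of them. No count test was run on the values. Distinct positions were counted with Python 3.11.15 by alignment midpoint on GENCODE M1 exons, leaving out bases that belong to more than 1 gene, and genes with 10 or more in at least 2 libraries (16994) entered limma-voom. A window of 35 bases counted as unique where it occurs once on NCBIM37, on either strand. The pairing used for the replicate block comes from the authors' headers and was checked on the data: deviations from the group means correlated at 0.764 (values) and 0.551 (positions) between libraries of the same number. Every step across genes was tested on simulated data.

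The 9 genes and the 12 other gene lists were chosen with earlier results of these data known. Of 155 list genes, 151 matched by symbol, 2 by Entrez identifier and 2 were not listed. The text names the 9 genes, the 2 highest and 2 lowest tested genes of each list, further list genes chosen after their values were seen, and the 3 genes nearest to Tet1, except for some genes that are not reported here. Alternatives were other pseudocounts, filters, scalings and moderation, the block, positions, all alignments and each library left out. The Dnmt3l transcripts and the unique windows were added after seeing the data.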

Additional observations from a re-analysis of the deposited data

How the results depend on the processing

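With 2 libraries a group, a value without depth and no repeats in the alignments of replicate 2, what the fits called depended on the replicate block and on the measure, values or positions. The 9 genes had 0 higher and 0 lower calls without it. The block gave 3 higher and 2 lower, median-ratio scaling with the block 2 and 3, quantile normalization with the block 3 and 2, distinct positions 3 and 2, and distinct positions with the block 4 and 2. A filter on a mean value of 0.01 gave 1 lower (Tet1). Leaving out a library gave 0 to 1 lower. Over all genes, against 1 higher and 0 lower, the counts were 4277 and 1314 with the block, 3379 and 2864 with median-ratio scaling and the block, 2936 and 2961 with quantile normalization and the block, 2568 and 864 on distinct positions, 5053 and 2343 there with the block, and 466 and 65 when the filter asked for a mean value of 0.01. The higher count was 0 with pseudocounts of 0.001 and 0.02, no filter, median-ratio scaling, quantile normalization and eBayes without a trend. Without 1 library the counts ranged from 72 (without solvent replicate 2) to 414 (without MS-275 replicate 1) higher and from 12 to 135 lower, and the lone library is then assumed to vary like the other group. In the 121 genes of the lists other than ESC and fibroblast markers, 0 and 0 became 15 and 23 with the block, 11 and 50 with median-ratio scaling and the block, 17 and 42 with quantile normalization and the block, 8 and 19 on distinct positions, 21 and 42 there with the block, 2 and 1 with the mean filter of 0.01, and 1 to 3 and 1 to 4 without 1 library.

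The log2 fold change of Tdg was -0.32 under quantile normalization, with the replicate block and without it, and from -0.12 (without solvent replicate 2) to 0.50 over the libraries left out. That of Uhrf1 was 0.40 without solvent replicate 2, 0.07 without MS-275 replicate 1 and down to -1.35 otherwise. The other 7 genes kept their direction under every alternative run, Tet1 from -2.90 to -2.04 and Tet2 from -1.35 to -1.18 over the libraries left out. Dnmt3a ranked 1 of 9 by value with MS-275 and 5 on positions per kb of its longest coding transcript. With all alignments in place of distinct positions, the Dnmt3a-001 share was 2.99% with solvent and 1.42% with MS-275, the Dnmt3a-005 share with MS-275 0.285%, the Dnmt3l-002 share against Dnmt3l-001 1.77% and 2.68% and against Dnmt3l-004 43.8% and 42.0%, and the Dnmt3l-004 share 0.703% and 2.38%. The causes of these differences were not tested.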
